A study of Mus musculus with 4 samples.

Results

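The aminoacyl-tRNA synthetases were followed in RNA sequencing of fetal liver LSK cells, the lineage-negative, Sca-1-positive, c-Kit-positive fraction that holds hematopoietic stem and early progenitor cells. Members were matched by gene symbol to a list of names, which gave 36 of the 39186 genes in the table, namely 20 cytosolic enzymes and 16 mitochondrial enzymes whose symbols end in 2. The samples were 2 *Pich*-KO and 2 *Pich*-WT, all from mouse fetal liver on the C57BL/6 strain, and the study took its fetal livers at embryonic day 14.5. The knockout is of *Pich*, an X-linked gene for a DNA translocase that coats ultrafine DNA bridges in anaphase. All 4 samples share strain, tissue and sort, but reads on Y-linked genes show that they do not all share sex. No label says that the samples of a group came from separate embryos or whether embryos were pooled. The p-values here thus measure only the spread between these samples. Whether the *Pich*-KO spread is only technical was not tested. Chi-square over its degrees of freedom, comparing the reads of 2 replicates, was larger in *Pich*-KO, at 17.7, than in *Pich*-WT, at 9.54. Reads on Y-linked genes were 1607 and 2848 in *Pich*-KO, against 2753 and 0 in *Pich*-WT.

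Each aminoacyl-tRNA synthetase joins one amino acid to the tRNAs that read its codons, and this charging step supplies every round of peptide elongation. Nuclear genes encode separate sets for the cytosol and for the mitochondria, and in the cytosol several of the enzymes sit with non-catalytic scaffold proteins in a large multi-synthetase complex. Many cytosolic members are textbook targets of ATF4, the transcription factor of the amino acid response, and growth regulators of the MYC family are also known to act on genes for protein synthesis.

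The libraries held 14703215 to 20933919 reads on genes, and values are given as normalized counts, meaning the reads of a gene scaled by a factor for its library. The gene *Pich* itself, listed as *Ercc6l*, had normalized counts of 1142 and 1232 in *Pich*-KO, against 772.1 and 661 in *Pich*-WT, and as the allele is a short deletion near the start of the gene, a total over the gene does not check the labels. The groups also differed in genes of other cell types. All 10 macrophage markers tested fell, and their summed normalized counts were 7918 to 9185 in *Pich*-KO against 58232 to 59778 in *Pich*-WT. The 7 erythroid markers found all fell as well, with sums of 25741 to 27986 against 116118 to 153441, and so did the 5 endothelial markers, with sums of 1349 to 2102 against 17419 to 26051. Of the 6 hepatocyte markers 4 fell, with sums of 2251 to 2798 against 3931 to 4382, whereas 3 of 4 granulocyte and mast cell markers rose, with sums of 62711 to 109586 against 12675 to 15215. None of the 4 lymphoid markers passed the test, with sums of 596 to 1133 against 963 to 1089. Among the 8 LSK and stem cell markers, *Ly6a*, which encodes Sca-1, rose with a log2 fold change of 1.74, and 3 fell, down to -2.37 for the stem cell transcription factor *Hlf*. The summed stem cell markers ran from 17486 to 26976 in *Pich*-KO and from 21659 to 22473 in *Pich*-WT. Every marker had more than 3 reads in some sample. Beside these counts of markers, 7.58% of all tested genes rose and 9.6% fell. *Pich*-WT sample 2 had 0 reads on 4 Y-linked genes, against 1607 to 2848 in each of the other samples. The *Pich*-WT samples therefore differed in male content and were not repeats of the same embryo or pool. Sex was not balanced between the groups. The part of these differences in the synthetase results was not tested.

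The cytosolic synthetases were higher in *Pich*-KO LSK cells as a set of small, parallel differences. Of the 20 genes, 18 rose, 0 fell, and *Wars* and *Sars* did not pass the test, at an adjusted p of 0.05 by limma with Benjamini-Hochberg adjustment over the 32428 genes tested. Over all tested genes, 7.58% rose and 9.6% fell. The members are all well expressed, and among the 9037 tested genes with a mean of at least 200, which include every member, 23.2% rose and 21.3% fell. The log2 fold changes of the 20 ran from 0.23 to 0.93, with a median of 0.50, beside medians of 0.03 over all genes tested and 0.06 over those with a mean of at least 200. Both *Pich*-KO values lay above both *Pich*-WT values for 20 of the 20 genes, as they did for 28.9% of all tested genes and 44.0% of those with a mean of at least 200. Both lay below for 27.2% of all tested genes and for 3314 of the 9037. In bulk RNA, a larger share of cells that express these genes and more RNA per cell cannot be told apart.

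The 20 cytosolic genes together gave 99125 and 99227 normalized counts in *Pich*-KO, against 70491 and 67946 in *Pich*-WT, a ratio of 1.43. As a share of all reads on genes this was 0.598% and 0.594% against 0.431% and 0.436%. The *Pich*-KO sums were nearly identical and stood clear of both *Pich*-WT sums. Within a group the replicates were close. The log2 gap between the samples of a group had a median over the 20 genes of 0.08 in *Pich*-KO and 0.07 in *Pich*-WT, while the lowest *Pich*-KO value exceeded the highest *Pich*-WT value by a median of 0.42 and by at least 0.16 on that scale. Calls depended on how the variance was estimated: where a single prior variance replaced its trend with the mean, limma called 0 of the 32428 genes, so 0 of the 20, with 7377 genes and 6 of the 20 at an unadjusted p under 0.05. On the recovered reads edgeR called 19 of the 20 higher, beside 18.6% of 16608 genes higher and 20.7% lower. Limma restricted to genes with at least 10 counts in every sample called 19, beside 21.1% higher and 22.5% lower of all such genes, and restricted to genes with a mean of at least 200 it called 19, beside 28.7% and 24.9%. With 1 sample left out, limma again called 0 of the 32428 genes in each case, with 5757 to 8599 genes and 13 to 19 of the 20 at an unadjusted p under 0.05. Of the 20, edgeR then called 13 higher without *Pich*-WT sample 1, where it called 9.67% of all genes higher, and 10 without *Pich*-WT sample 2, where it called 9.62%. It called 20 without *Pich*-KO sample 1, beside 20.2% of all genes, and 19 without *Pich*-KO sample 2, beside 17.2%.

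**Figure D1:**
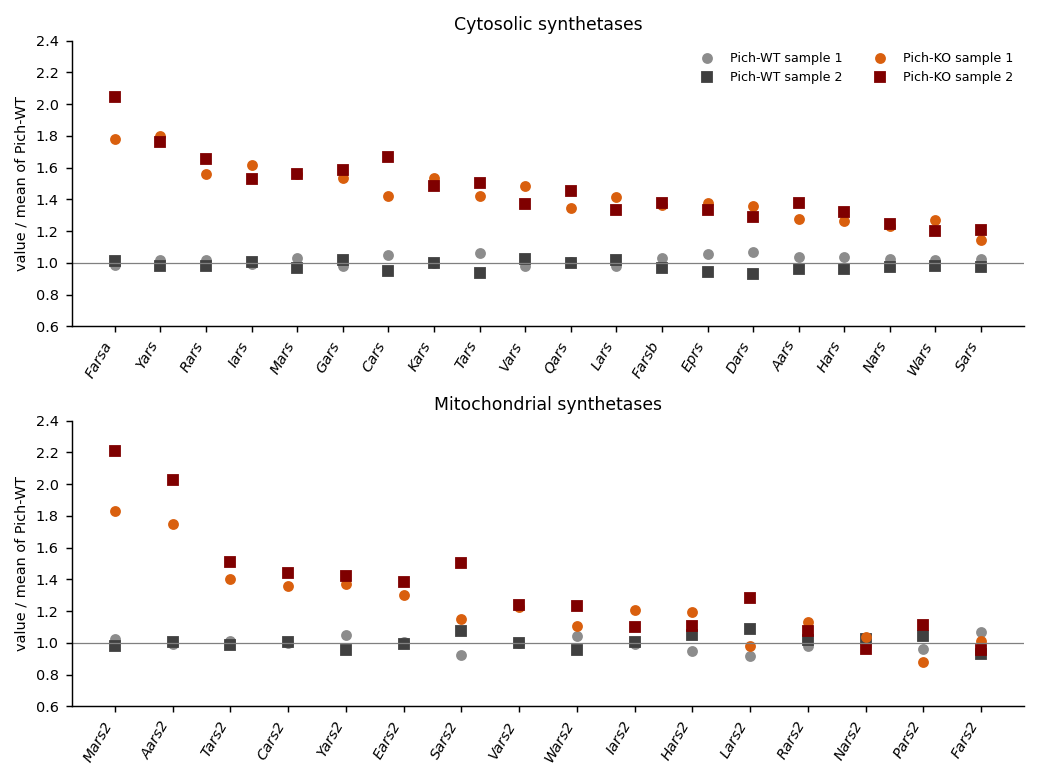
Normalized counts of each synthetase in each of the 4 samples, divided by the gene's mean in *Pich*-WT on a linear axis, with the 20 cytosolic and the 16 mitochondrial genes in separate panels and one point per sample. For all 20 cytosolic genes the *Pich*-KO points lie above the *Pich*-WT points, while for 4 of the 16 mitochondrial genes they overlap.

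Phenylalanyl-tRNA synthetase is a tetramer of alpha subunits encoded by *Farsa* and beta subunits encoded by *Farsb*, and its catalytic subunit gave the largest cytosolic difference. *Farsa* (chromosome 8, 84856989 to 84869257, plus strand, GRCm38) had 4157 and 4773 normalized counts in *Pich*-KO, against 2308 and 2356 in *Pich*-WT. The log2 fold change was 0.93 with a standard error of 0.10 (limma, adjusted p = 0.000722), and the lowest *Pich*-KO value was far above both controls. Its partner *Farsb* (chromosome 1, 78417975 to 78488897, minus strand) had 3946 and 3987 against 2985 and 2793, a log2 fold change of 0.46 (limma, adjusted p = 0.0116). Both subunit genes rose, but the *Farsa* to *Farsb* ratio was 1.05 and 1.20 in *Pich*-KO, against 0.773 and 0.844 in *Pich*-WT. The ratios did not overlap between groups, and an exact two-sided permutation test gave p = 0.333, the smallest that 2 samples against 2 allow.

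Tyrosyl-tRNA synthetase came next. *Yars* (chromosome 4, 129189760 to 129219607, plus strand) had 4005 and 3918 in *Pich*-KO, against 2269 and 2179 in *Pich*-WT, giving a log2 fold change of 0.83 ± 0.09 (SE; limma, adjusted p = 0.000764). Replicates were close in both groups, and the *Pich*-KO values stood far above the controls.

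The 8 catalytic members of the multi-synthetase complex all rose, with a median log2 fold change of 0.54 and a range of 0.41 to 0.68. Beside them, 7.58% of all tested genes rose, and 23.2% of those with a mean of at least 200. *Rars*, which charges arginine, had 3809 and 4045 against 2484 and 2402 (log2 fold change 0.68, limma, adjusted p = 0.00201). *Iars*, for isoleucine, had 6234 and 5908 against 3836 and 3880 (0.65, adjusted p = 0.00145). *Mars*, for methionine and so also for initiator tRNA, had 4982 and 4987 against 3300 and 3086 (0.64, adjusted p = 0.00203). In these 3 genes each *Pich*-KO sample was well above each control, and the spread within a group was small beside the gap. *Kars*, for lysine, had 5112 and 4938 against 3323 and 3332 (0.59, adjusted p = 0.00253). *Qars*, for glutamine, had 2223 and 2406 against 1657 and 1648 (0.48, adjusted p = 0.0166). *Lars*, for leucine, had 3280 and 3087 against 2276 and 2355 (0.46, adjusted p = 0.0145). The groups stayed apart in each, with *Kars* the tightest in *Pich*-WT. The bifunctional *Eprs*, a single chain that charges both glutamate and proline, had 7701 and 7434 against 5894 and 5264 (0.44, adjusted p = 0.0109). *Dars*, for aspartate, had 5756 and 5444 against 4519 and 3936 (0.41, adjusted p = 0.0249), the smallest of the 8. For both of these, *Pich*-WT sample 1 was the higher control, and it still lay below both *Pich*-KO samples.

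The 3 scaffold genes of the complex, which have no charging activity, also rose, beside 7.58% of all tested genes and 23.2% of those with a mean of at least 200. *Eef1e1*, also called AIMP3, had 1898 and 1687 normalized counts in *Pich*-KO, against 964.4 and 863 in *Pich*-WT (log2 fold change 0.97, limma, adjusted p = 0.00159). *Aimp1* had 966.4 and 1073 against 683.8 and 636 (0.63, adjusted p = 0.0161), and *Aimp2* had 1134 and 1289 against 880.8 and 766 (0.56, adjusted p = 0.0294). The summed scaffold counts were 3999 and 4049 against 2529 and 2265, a ratio of 1.68. In all 3 genes both *Pich*-KO values lay above both *Pich*-WT values, as in 44.0% of genes with a mean of at least 200.

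Outside the complex, 10 of 12 cytosolic genes rose, with a median log2 fold change of 0.485. The shares that rose were 7.58% of all tested genes and 23.2% of those with a mean of at least 200. Whether genes inside and outside the complex differ was not tested. *Gars*, which like *Kars* encodes both the cytosolic and the mitochondrial enzyme for its amino acid, had 6857 and 7080 normalized counts in *Pich*-KO, against 4398 and 4550 in *Pich*-WT (log2 fold change 0.64, limma, adjusted p = 0.00133). *Cars*, for cysteine, had 2311 and 2712 against 1709 and 1547 (0.62, adjusted p = 0.0103). *Tars*, for threonine, had 4075 and 4326 against 3058 and 2686 (0.55, adjusted p = 0.00818). *Gars* had the closest replicates of these and *Cars* the widest spread in *Pich*-KO. *Vars*, the valine enzyme and the most abundant synthetase transcript, had 13681 and 12639 against 9027 and 9428 (0.51, adjusted p = 0.00274). *Aars*, for alanine, had 4548 and 4905 against 3704 and 3429 (0.41, adjusted p = 0.021). Neither gene's *Pich*-KO samples came near the controls. *Hars*, for histidine, had 3016 and 3161 against 2478 and 2302 (0.37, adjusted p = 0.0387), and *Nars*, for asparagine, had 6599 and 6674 against 5494 and 5238 (0.31, adjusted p = 0.0348). The remaining pair did not pass the test. *Wars*, for tryptophan, had 3624 and 3423 against 2900 and 2801, a log2 fold change of 0.31 (adjusted p = 0.0648, and 0.022 to 0.453 over the alternatives that keep all 4 samples). *Sars*, for serine, had 3209 and 3380 against 2873 and 2734, a log2 fold change of 0.23 (adjusted p = 0.154, and 0.0519 to 0.558 over the same alternatives). In both genes the *Pich*-KO samples were nonetheless the higher ones. *Wars* is also a known interferon gamma target.

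**Figure D2:**
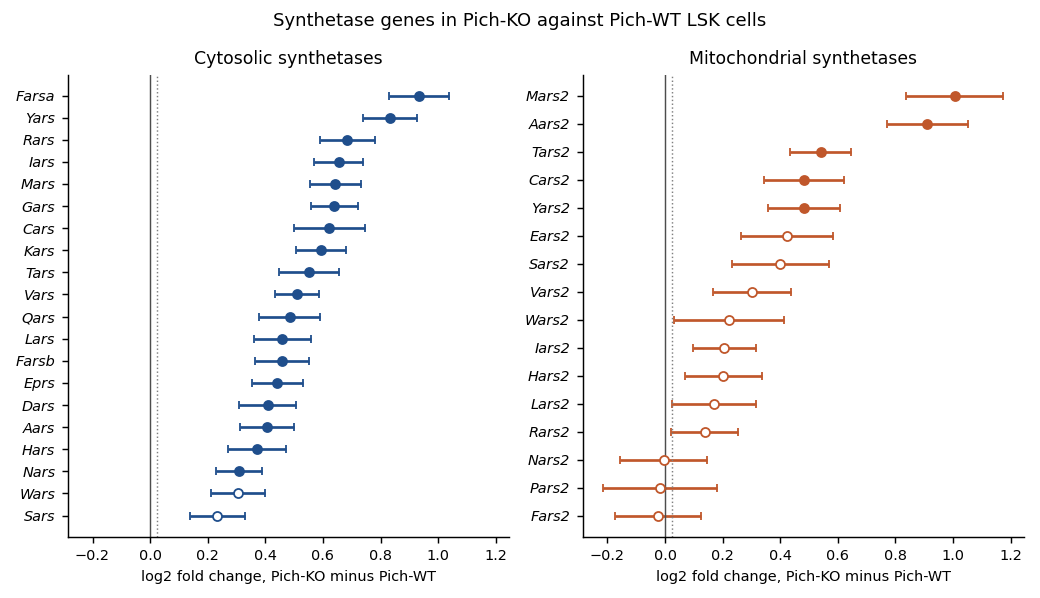
Log2 fold change, *Pich*-KO minus *Pich*-WT, for each of the 36 synthetase genes, with bars of 1 standard error from limma, filled points for genes past an adjusted p of 0.05, and a dotted line at the median of all tested genes. The cytosolic values run from 0.23 to 0.93 and the mitochondrial values from -0.02 to 1.01.

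Synthetases fall into class I, with a Rossmann fold, and class II, with an unrelated catalytic fold. In class I, 11 of 18 rose with a median log2 fold change of 0.48, and in class II 11 of 17 rose with a median of 0.41. Both classes mix cytosolic and mitochondrial genes. The counts of this paragraph stand beside 7.58% of all tested genes that rose and 23.2% of those with a mean of at least 200. *Eprs* carries one domain of each and was left out of both counts. Of the 12 cytosolic genes listed as ATF4 targets 10 rose, with a median of 0.505 and a range of 0.23 to 0.83, while all 8 of the other cytosolic genes rose, with a median of 0.50 and a range of 0.37 to 0.93.

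Promoter sequence was read for members with an entry in the RefSeq table for GRCm38.p6, covering 250 bases before to 50 after the start, which gave 12 of the 20 cytosolic and 14 of the 16 mitochondrial genes. The core of the ATF4 composite element, TGATGNAA on either strand, was in 4 of the 12 cytosolic windows (*Gars*, *Iars*, *Tars* and *Yars*) and in 0 of the 14 mitochondrial ones. It was in 4.51% of all genes with a window and in 2.62% of the 7105 such genes with a mean of at least 200. These letters were chosen after the fold changes were known, and a match is a description, not a binding site. The sequences below run 5′ to 3′ on the gene's strand, the capitals mark the match, and TTGCATCA and TTTCATCA are the motif on the opposite strand. They are shown so that the match and its flanks can be compared between the 4 genes.
Gars, chr6:55037961-55037988 (+): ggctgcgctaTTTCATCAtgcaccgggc
Iars, chr13:49682127-49682154 (+): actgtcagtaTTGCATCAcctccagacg
Tars, chr15:11399656-11399683 (-): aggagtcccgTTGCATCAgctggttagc
Yars, chr4:129189896-129189923 (+): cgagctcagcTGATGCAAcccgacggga

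The first base of the match lay at -30 in *Gars*, 8 in *Iars*, -15 in *Tars* and 4 in *Yars*, counted from the RefSeq start. The log2 fold changes of these 4 genes were 0.64, 0.65, 0.55 and 0.83 in the same order, all past the threshold. Passing does not set them apart, as 18 of the 20 cytosolic genes passed, and of those with a window only *Sars* did not. The largest cytosolic difference, in *Farsa*, was in a gene whose window held no match.

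The E-box CACGTG, the sequence that MYC and its partner MAX are known to bind and that reads the same on both strands, was in 3 of the 12 cytosolic windows (*Farsb*, *Iars* and *Tars*) and in 1 of the 14 mitochondrial ones (*Ears2*). It was in 8.09% of all genes with a window and in 12.7% of those with a mean of at least 200. A further element, of the interferon-stimulated type, was searched as GAAA followed by any 2 bases and GAAA on either strand, and was in 1 of the 12 cytosolic windows (*Qars*) and in 0 of the 14 mitochondrial ones, beside 3.99% of all genes. *Iars* and *Tars* held both the E-box and the ATF4-type core without overlap. Their E-boxes are shown with that of *Farsb* to set the flanking bases side by side.
Farsb, chr1:78488921-78488946 (-): agacaggcatCACGTGagacagccca
Iars, chr13:49682051-49682076 (+): ccaatcgccaCACGTGttgtttgtag
Tars, chr15:11399624-11399649 (-): cgcctgtggcCACGTGgcgcacgcgc

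Fewer of the mitochondrial synthetases passed the test, and whether the compartments differ was not tested as such. Of the 16 genes 5 rose, 0 fell and 11 did not pass the test, beside 7.58% of all tested genes that rose and 23.2% of those with a mean of at least 200. The median log2 fold change was 0.26, with a range of -0.02 to 1.01, and 13 of the 16 values were positive. Both *Pich*-KO values lay above both *Pich*-WT values in 12 of 16, set against 44.0% of genes with a mean of at least 200. Summed, the 16 genes gave 17693 and 19378 normalized counts in *Pich*-KO, against 14512 and 15236 in *Pich*-WT, a ratio of 1.25. With a single prior variance limma called none of the 16, as of all 32428 genes, with 2 of the 16 at an unadjusted p under 0.05, and edgeR called 6 beside 18.6% of all genes. With 1 sample left out, limma called 0 of all genes, with 5 to 8 of the 16 at an unadjusted p under 0.05. Of the 16, edgeR then called 3 without *Pich*-WT sample 1 and 3 without *Pich*-WT sample 2, beside 9.67% and 9.62% of all genes, and 8 without *Pich*-KO sample 1 and 6 without *Pich*-KO sample 2, beside 20.2% and 17.2%.

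*Mars2* and *Aars2* stood above the other mitochondrial genes. *Mars2* (chromosome 1, 55237177 to 55248470, plus strand), for mitochondrial methionyl-tRNA, had 556.3 and 670.7 normalized counts in *Pich*-KO, against 310.3 and 297 in *Pich*-WT, giving a log2 fold change of 1.01 ± 0.17 (SE; limma, adjusted p = 0.00489). *Aars2* (chromosome 17, 45506841 to 45520843, plus strand), for mitochondrial alanyl-tRNA, had 987.1 and 1142 against 561.1 and 568, a log2 fold change of 0.91 ± 0.14 (SE; limma, adjusted p = 0.00337). In both, *Pich*-KO sample 2 was the highest of the 4 and the controls were nearly equal. *Tars2*, for threonine, had 2198 and 2367 against 1586 and 1550 (0.54, adjusted p = 0.0105). *Yars2*, for tyrosine, had 1264 and 1306 against 963.6 and 877 (0.48, adjusted p = 0.0327). *Cars2*, for cysteine, had 739.5 and 785.5 against 543.1 and 546 (0.48, adjusted p = 0.0495, and 0.0151 to 0.284 over the alternatives that keep all 4 samples). Both *Pich*-KO values lay above both *Pich*-WT values in these 3 genes, as in 44.0% of genes with a mean of at least 200. *Cars2* lay at the edge of the threshold, and with no filter on the mean *Yars2* did not pass (limma, adjusted p = 0.0545).

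Among the 11 mitochondrial genes that did not pass, the log2 fold changes ran from -0.02 to 0.42. *Ears2*, for glutamate, had 445 and 471.7 against 343.9 and 339 (0.42, adjusted p = 0.121, and 0.0453 to 0.327 over the alternatives that keep all 4 samples), and it passed with edgeR (adjusted p = 0.0487). *Sars2*, for serine, had 862.7 and 1128 against 692.4 and 807 (0.40, adjusted p = 0.167). In *Sars2* the groups were apart by a small margin, between *Pich*-KO sample 1 and *Pich*-WT sample 2. *Lars2*, for leucine, had 3752 and 4930 against 3514 and 4157 (0.17, adjusted p = 0.513) and overlapped between groups, with sample 2 the higher in each. *Fars2*, for phenylalanine, had 626.1 and 591.1 against 662.7 and 577, *Nars2*, for asparagine, had 517 and 478.6 against 488.4 and 510, and *Pars2*, for proline, had 231.2 and 292.1 against 252.4 and 274. These 3 overlapped fully, with log2 fold changes of -0.02, -0.005 and -0.02, and standard errors of 0.15, 0.15 and 0.20. The values of *Vars2*, *Wars2*, *Iars2*, *Hars2* and *Rars2* lay between 0.14 and 0.30.

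The library kit named in the labels does not mark strand, so reads from genes that overlap on opposite strands cannot be told apart. For 11 members another gene overlaps on the opposite strand with a mean of at least 1% of the member's own. The overlap is 89 bases for *Ears2* with *Ubfd1*, whose mean is 550% of that of *Ears2*, and 984 bases for *Cars2* with *Naxd*, at 140%. *Hars* and *Hars2* overlap each other at their starts by 198 bases, and *Iars2* overlaps *Rab3gap2* by 2034 bases. How the counting treated such bases is not given in the sources used here.

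Each mitochondrial enzyme was set beside the cytosolic enzyme for the same amino acid, with *Farsa* standing for the phenylalanine enzyme and *Eprs* entering for both glutamate and proline, which gave 16 pairs. *Dars*, *Farsb*, *Gars*, *Kars* and *Qars* were in no pair. The cytosolic log2 fold change was the larger in 13 of the 16. The cytosolic to mitochondrial ratio of normalized counts separated the samples of the groups in 9 pairs, with the cytosolic gene ahead in 7 and the mitochondrial gene ahead in 2. How often other gene pairs separate in this way was not computed, so the count is a description and not a result about the compartments. The widest difference between log2 fold changes was 0.96 for *Farsa* and *Fars2*, where the log2 ratio was 2.73 and 3.01 in *Pich*-KO, against 1.80 and 2.03 in *Pich*-WT. That rank rests on the subunit chosen, as *Farsb* had a smaller log2 fold change, 0.46, and was not paired. Among the separated pairs, alanine and methionine were the 2 that ran the other way, with differences of -0.50 for *Aars* and *Aars2* and -0.36 for *Mars* and *Mars2*. Serine also ran the other way, with -0.17 for *Sars* and *Sars2*, but its ratio did not separate the groups. For threonine the enzymes of both compartments rose almost alike, at 0.55 and 0.54. With 2 samples against 2, no single pair can pass an exact test, whose smallest p is 0.333.

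**Figure D3:**
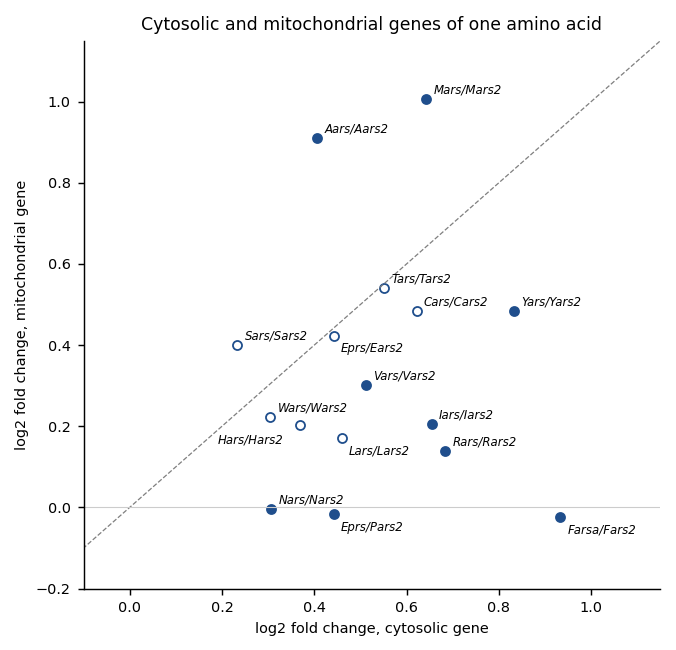
Log2 fold change of the cytosolic synthetase on the horizontal axis against that of the mitochondrial synthetase for the same amino acid on the vertical axis, one point per pair filled where the ratio separates the groups, with a dashed line of equal change. In 13 pairs the cytosolic value is the larger, and *Aars2*, *Mars2* and *Sars2* lie on the other side of the line.

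Levels between genes were compared as normalized counts per kilobase of transcript, using for each gene the transcript with the longest coding sequence. In *Pich*-WT the cytosolic genes had a median level of 1180 per kilobase with a range of 505.3 to 2231, and the mitochondrial genes a median of 272.9 with a range of 26.88 to 985. *Vars* was highest, at 2231 in *Pich*-WT and 3181 in *Pich*-KO, followed in *Pich*-WT by *Nars* at 1955, *Dars* at 1944 and *Gars* at 1880. *Wars*, *Kars*, *Sars* and *Farsb* came next, from 1563 down to 1419. *Cars* was the lowest cytosolic gene at 505.3, preceded by *Lars* at 581.8 and *Qars* at 590.1. *Gars* passed *Nars* and *Dars* in *Pich*-KO, where it reached 2928 against 2418 and 2575. The level of *Farsa* went from 1277, below *Farsb* at 1419, to 2445, above *Farsb* at 1948. *Lars2* was the mitochondrial gene with the highest level, 985 in *Pich*-WT, and ranked 14 among the 36. *Mars2* was lowest at 26.88 in *Pich*-WT and 54.32 in *Pich*-KO, a level that rests on a transcript length of 11294 bases, most of it outside the coding sequence of 1758 bases.

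**Figure D4:**
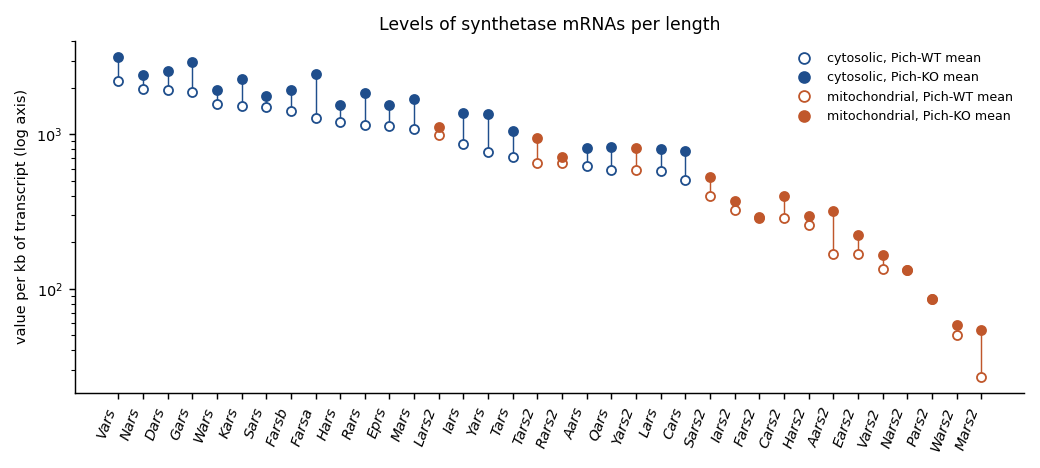
Level of each synthetase transcript in *Pich*-WT and in *Pich*-KO, as normalized counts per kilobase of transcript on a log axis, ordered by the *Pich*-WT level. *Vars* is highest at 2231 and *Mars2* lowest at 26.88 in *Pich*-WT, and the first mitochondrial gene in the order is *Lars2*, at rank 14.

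Genes that act before and after tRNA charging were read from lists of known genes. Added to them were the complex scaffolds, the eIF2 alpha kinases with ATF4, other ATF4 targets, and the MYC family with MAX. Together these are called the lists around tRNA charging, 77 genes in all, of which 37 rose and 3 fell. Those that fell were the regulators *Eif2ak1*, *Mycn* and *Mycl*. The counts of these lists stand beside 7.58% of all tested genes that rose and 9.6% that fell. Among genes with a mean of at least 200 these shares were 23.2% and 21.3%. Of 22 genes for tRNA end processing, splicing and export 12 rose and 0 fell, with a median log2 fold change of 0.46. *Xpot*, the exporter of mature tRNA from the nucleus, had 3400 and 3168 normalized counts in *Pich*-KO, against 1686 and 1439 in *Pich*-WT (log2 fold change 1.07, limma, adjusted p = 0.000654), the largest of that list. *Rtcb*, the tRNA ligase, had the smallest that passed, 0.43 (adjusted p = 0.00994). Of 6 genes for trans-editing factors and selenocysteinyl-tRNA synthesis 1 rose, *Sepsecs*, which converts phosphoseryl-tRNA to selenocysteinyl-tRNA, with 674.1 and 694.5 against 357.1 and 345 (0.96, adjusted p = 0.00339). The mitochondrial amidotransferase, which makes glutaminyl-tRNA where no mitochondrial glutamine enzyme exists, and the methionyl-tRNA formyltransferase together gave 0 calls of 4, with a range of -0.42 to 0.63.

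Of 6 cytosolic elongation factor genes 5 rose, from 0.37 for the translocase *Eef2* (adjusted p = 0.00492) to 0.86 for the exchange factor subunit *Eef1d* (adjusted p = 0.00116). *Eef1a1*, which carries charged tRNA to the ribosome and was the most abundant of them in *Pich*-WT, had 50973 and 49275 against 49762 and 51639 (-0.02, adjusted p = 0.884) and overlapped between groups. Of 10 mitochondrial translation factor genes 4 rose, between 0.48 for *Tsfm* (adjusted p = 0.0323) and 0.82 for *Gfm1* (adjusted p = 0.00207). No gene in either list fell.

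The regulators known to govern synthetase genes moved in mixed directions. Of 9 genes for the eIF2 alpha kinases, their substrate, the phosphatase subunits and ATF4, 5 rose and 1 fell. *Atf4* had 4813 and 5057 normalized counts in *Pich*-KO, against 3662 and 3656 in *Pich*-WT (log2 fold change 0.43, limma, adjusted p = 0.0113), a transcript whose protein is known to be set mostly by translation, which was not measured. *Eif2ak2*, the double-stranded RNA kinase PKR and a known interferon target, had 1442 and 1319 against 383.7 and 374 (1.86, adjusted p = 0.000117), and the heme-regulated kinase *Eif2ak1* had 2018 and 1813 against 2752 and 2551 (-0.47, adjusted p = 0.0218). The samples of the groups did not overlap for any of these 3 genes. Most genes with a mean of at least 200 did not overlap either, as 3976 of the 9037 lay wholly above *Pich*-WT and 3314 wholly below.

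Of 13 ATF4 targets that are not synthetases 5 rose and 0 fell, with a median of 0.565. *Phgdh*, the first enzyme of serine synthesis, had 16462 and 16744 against 6742 and 6883 (1.29, adjusted p = 4.13e-05), the largest, and *Slc7a5*, an amino acid transporter, the smallest that passed, 0.56 (adjusted p = 0.00968). *Asns*, asparagine synthetase, had 3062 and 3190 against 3053 and 2549 (0.16, adjusted p = 0.417), with one control level with a *Pich*-KO sample. Other stress-linked genes of this list did not pass: *Ddit3*, which encodes CHOP, had 219.2 and 213.7 against 220.4 and 224 (-0.04, adjusted p = 0.929), and *Trib3* had 141.8 and 113.7 against 85.18 and 112 (0.37, adjusted p = 0.422). *Chac1*, a glutathione-degrading enzyme, had only 50.17 and 59.11 against 22.66 and 27 (1.11, adjusted p = 0.0695), and it passed with edgeR (log2 fold change 1.16, adjusted p = 0.0394).

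In the MYC family 2 genes rose and 2 fell. *Myc* had 8315 and 9910 normalized counts in *Pich*-KO, against 4226 and 3854 in *Pich*-WT (log2 fold change 1.17, limma, adjusted p = 0.000294), and both *Pich*-KO samples were well above the controls. *Max* rose by 0.93 (adjusted p = 0.0369), whereas *Mycn* had 1311 and 767.3 against 1933 and 2328 (-1.08, adjusted p = 0.0157) and *Mycl* had 193.1 and 71.61 against 369.7 and 328 (-1.56, adjusted p = 0.0352). The groups did not overlap in *Myc*, *Max*, *Mycn* or *Mycl*. The *Pich*-KO samples lay wide apart in *Mycl*, in *Mycn* and in *Max*, which had 960.9 and 1544 against 539.2 and 758 in *Pich*-WT.

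**Figure D5:**
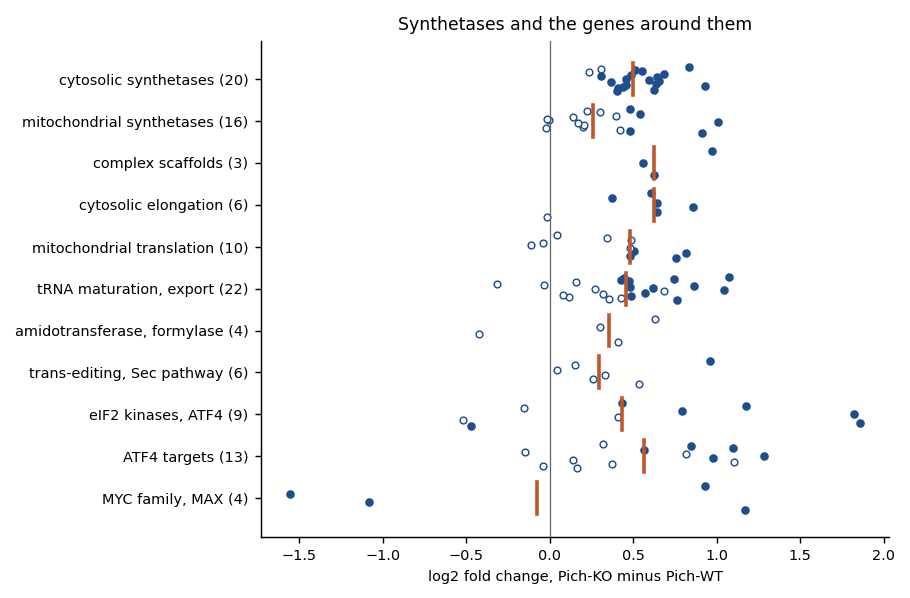
Log2 fold change, *Pich*-KO minus *Pich*-WT, of every tested gene in each list, one point per gene, filled past an adjusted p of 0.05, with the list's median as a bar, for the cytosolic and mitochondrial synthetases and for the lists of genes around tRNA charging. The medians are 0.50 for the cytosolic and 0.26 for the mitochondrial synthetases.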

How the data were processed

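RNA sequencing of fetal liver LSK cells gave a table of 39186 genes for 2 *Pich*-KO and 2 *Pich*-WT samples. The deposited sample values are a signal that the authors made by dividing each gene's read count by a factor for its library, and whole reads were recovered for every value within 0.01 of a read. The labels name Bowtie 0.12.2 and the builds mm8 and mm9, but 97.8% of the 39163 genes found in GENCODE M21 have the same start and end there, so coordinates are those of GRCm38. The counter is not given in the sources used here. Columns holding the authors' own fold changes and p-values were not used.

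Values were tested as log2(value + 1) with limma 3.58.1 in R 4.3.3, with a variance trend, over 32428 genes with a mean of at least 1, and adjusted by the Benjamini-Hochberg method. The libraries held 15195434 and 14703215 (*Pich*-KO) and 20933919 and 15567891 (*Pich*-WT) reads on genes. The replicates were distinct libraries: chi-square over its degrees of freedom was 17.7 for the *Pich*-KO pair and 9.54 for the *Pich*-WT pair. The alternatives were edgeR 4.0.16, DESeq2 1.42.0, other filters and scalings, a pseudocount of 0.1 and leaving out samples. On the recovered reads, all of which came out whole (100%), edgeR called 3097 genes higher and 3436 lower of 16608, against 2459 and 3113 by limma. The fits were also run on simulated counts, with the same dispersion for every gene and larger changes than most synthetases showed. That run does not show how well differences as small as these are called.

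Any synthetase could be named, with full values for those past the threshold and for *Wars*, *Gars*, *Kars* and *Eprs*, and from each other list the largest and smallest log2 fold change past the threshold, beside *Atf4*, *Asns*, *Ddit3*, *Trib3*, *Chac1* and *Myc*. Further genes, such as *Sars*, *Eef1a1* and those shown for a group that did not pass, were named after their values were seen. The promoter sequence of 1 member is not reported here. Members and lists were chosen with earlier results of these data known.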

Additional observations from a re-analysis of the deposited data

How the results depend on the processing

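All 20 cytosolic log2 fold changes stayed positive in every setting. With one prior variance for all genes limma called 0 of all 32428 genes, of which 7377 had an unadjusted p under 0.05. It thus called 0 cytosolic and 0 mitochondrial synthetases, and 0 genes higher and 0 lower in the lists around tRNA charging, against 37 higher and 3 lower of 77 with the variance trend. With no filter 3 mitochondrial synthetases were called higher and 1 gene of those lists lower. That lower count was 5 where every sample needed at least 10 counts, 5 with edgeR and TMM scaling, and 6 with a mean of at least 200, a filter added after seeing the data. Scaling to total reads gave medians of 0.438 for the cytosolic and 0.201 for the mitochondrial synthetases. The values of 3 genes near 0 changed sign without a call: *Nars2* to 0.017 and *Pars2* to 0.014 with edgeR and TMM scaling, and *Fars2* to 0.005, *Nars2* to 0.026 and *Pars2* to 0.022 with upper-quartile scaling. The causes were not tested. Counts of cytosolic and mitochondrial synthetases called higher were otherwise 17 and 4 with a pseudocount of 0.1, 15 and 3 with no filter, 16 and 4 with total reads, 17 and 5 with DESeq2, and 19 and 6 with edgeR. The calls lost were *Hars* and *Cars2* with a pseudocount of 0.1, and *Hars*, *Nars* and *Cars2* with total reads. With no filter they were *Dars*, *Hars*, *Nars*, *Cars2* and *Yars2*.

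With each sample left out in turn, over limma and an edgeR fit added after seeing the data, calls ran from 0 to 20 for cytosolic and from 0 to 8 for mitochondrial synthetases, and medians from 0.482 to 0.542 and from 0.266 to 0.367. The limma fits called 0 of all genes. A group left with 1 sample is assumed to vary like the other. In the lists around tRNA charging, 0 to 46 genes were called higher (24 with edgeR without *Pich*-WT sample 1, and 24 without *Pich*-WT sample 2) and 0 to 4 lower (1 with edgeR without *Pich*-WT sample 1). Log2 fold changes that changed sign ran from -0.123 to 0.087 for *Fars2*, from -0.061 to 0.089 for *Nars2*, from -0.185 to 0.182 for *Pars2* and from -0.027 (without *Pich*-KO sample 2) to 0.392 for *Lars2*.

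The labels share replicate numbers. The differences between numbers 1 and 2 had a correlation of 0.017 between the groups over 11860 genes. Whether samples with the same number share more than that number was not tested. With the replicate block 18 cytosolic and 5 mitochondrial synthetases were called higher, as without it. With 2 samples a group, depth limits the low genes, and an exact test of a single value cannot go below 0.333.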
